A study of Mus musculus with 2 samples.

Results

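The genes described here are 34 genes of the endoplasmic reticulum (ER) chaperone system and the unfolded protein response, among 18309 genes measured over both libraries. They were chosen by symbol, and all 34 have a row in the deposited data. They fall into 15 chaperones and folding enzymes, 7 genes of ER-associated degradation (ERAD), 7 genes of the ATF4 arm, and 5 sensors and transcription factors. A further criterion set the cells to compare, which are secretory epithelial cells marked by the Paneth cell gene Lyz1 and the goblet cell gene Muc2, other epithelial states, and fibroblasts.

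The study grew small intestinal fibroblasts together with crypts, the glands that renew the gut lining, from C57BL6 mice aged 10 weeks. In the Ptger4-OFF group the EP4 antagonist ONO-AE3-208 was given every second day at 10.0 µM and the epithelium grew as budding organoids. In the Ptger4-ON group the DMSO vehicle was given and the epithelium grew as spheroids. EP4, the product of Ptger4, is a cell surface receptor that binds prostaglandin E2. All cultures were in Organoid Growth Media and contained fibroblasts. Each group is 1 Drop-seq library made from a pool of 6 co-cultures, so no ratio between the groups has a replicate error and none has a p-value. All intervals cover counting error only.

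The ER folds proteins that enter the secretory pathway. BiP (Hspa5) and other chaperones hold unfolded chains, protein disulfide isomerases form their disulfide bonds, and ERAD returns chains that fail to fold to the cytosol for destruction. When unfolded chains build up, IRE1 (Ern1, Ern2) splices Xbp1 mRNA, ATF6 is cut to release a transcription factor, and PERK (Eif2ak3) slows translation and favours that of ATF4. XBP1 and ATF6 act mainly on chaperone and ERAD genes, and ATF4 on genes of amino acid supply and on Ddit3, which encodes CHOP. In the gut, Paneth and goblet cells make large amounts of antimicrobial proteins and mucins, and IRE1β (Ern2) is known from the gut epithelium. Splicing of Xbp1, cleavage of ATF6 and protein levels were not measured here.

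A sequence through which ATF6 and XBP1 are known to act is the ER stress response element, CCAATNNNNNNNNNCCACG. It was searched on both strands in the 250 bases before the start of each gene in the RefSeq promoter table of GRCm38.p6. Of the 34 members, 29 had such a window, 30 windows in all because Derl2 had 2. The element was found in 7 of 13 chaperone windows (53.8%), in 2 of 7 ERAD windows, and in 0 of 7 ATF4 arm and 0 of 3 sensor windows, against 37 of all 32851 windows (0.113%). The core of the amino acid response element, TTGCATCA, was found at Chac1 and Herpud1 (260 of all windows, 0.791%), and a second form of the ER stress element, ATTGGNCCACG, at Herpud1 alone among the members (10 of all windows, 0.0304%). The core TGACGTGG, bound by XBP1, was found in no member window and in 185 of all windows (0.563%). The stretches below are shown because they carry the matched letters at the members whose levels are followed most closely here, and they run 5′ to 3′ in the direction of the gene. The letters of the motif are in capitals, in the element both of its ends, and a match on the other strand reads CGTGG first and ATTGG last.
Hspa5: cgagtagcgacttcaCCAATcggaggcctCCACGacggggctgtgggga
Calr: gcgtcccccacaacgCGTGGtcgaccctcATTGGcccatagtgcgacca
Pdia6: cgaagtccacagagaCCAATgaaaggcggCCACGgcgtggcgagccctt
Dnajc3: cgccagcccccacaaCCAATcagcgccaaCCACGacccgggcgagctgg
Creld2: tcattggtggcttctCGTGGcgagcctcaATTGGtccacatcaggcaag
Canx: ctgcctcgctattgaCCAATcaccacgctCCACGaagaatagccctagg
Syvn1: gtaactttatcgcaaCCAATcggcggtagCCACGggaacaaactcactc
Herpud1: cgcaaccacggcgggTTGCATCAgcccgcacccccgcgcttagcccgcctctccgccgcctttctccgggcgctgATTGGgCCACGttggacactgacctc
Chac1: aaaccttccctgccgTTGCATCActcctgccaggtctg

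These stretches lie at chr2:34772010-34772058 on the plus strand (Hspa5), chr8:84847060-84847108 on the minus strand (Calr), chr12:17266476-17266524 on the plus strand (Pdia6), chr14:118937812-118937860 on the plus strand (Dnajc3) and chr15:88819505-88819553 on the plus strand (Creld2). Those of Canx, Syvn1, Herpud1 and Chac1 lie at chr11:50325785-50325833 on the minus strand, chr19:6046517-6046565, chr8:94386302-94386402 and chr2:119351034-119351071 on the plus strand. All are upstream of the annotated start, the nearest at -59 to -11 bases (Syvn1) and the farthest at -208 to -171 bases (Chac1). The element was also found at Hsp90b1, in 2 copies, and at Derl3. A match describes the letters of the window and is not evidence that a factor was bound there.

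The libraries held 9490205 unique molecular identifiers (UMIs, counted mRNA molecules) in 1599 cell barcodes in Ptger4-OFF and 7408303 UMIs in 908 barcodes in Ptger4-ON. After filtering, 1560 and 876 cells remained, of which 1200 and 588 were epithelial-like and 355 and 262 fibroblast-like. The clusters were built without the 34 members and without the other ER lists used below. The secretory cells are the 65 Ptger4-OFF and 67 Ptger4-ON cells of 1 cluster led by Defa17, Defa24, Lyz1, Spink4, Agr2 and Muc2, which are 5.42% and 11.4% of the epithelial-like cells. Paneth and goblet markers lead this cluster together, so it is called secretory and not by 1 of these cell types. The other epithelial-like cells (1135 and 521) fall into an enterocyte-like cluster (145 and 23 cells), a cycling cluster led by Nusap1 and Cenpf (362 and 153), a cluster led by Ung, Dtl, Aqp4 and Nrn1 (538 and 169), a cluster led by Msln and Clu (73 and 175) and an enteroendocrine-like cluster (17 and 1). A shallow cluster of 5 and 26 cells was led by Grem1, Actg2, Acta2 and Myl9, of which Actg2 alone is on a marker list used here (smooth muscle). It was left unnamed and out of the classes. Of the barcodes over 50000 UMIs (6 and 16), 1 in each library was a secretory cell and held 12.9% and 21.3% of the secretory UMIs. The groups' shares of states differ, with the Msln and Clu cluster at 6.08% of the Ptger4-OFF and 29.8% of the Ptger4-ON epithelial-like cells.

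Secretory cells carried more mRNA of the folding machinery than other epithelial-like cells in both libraries, a similar summed level of the ATF4 arm, and far more Ern2. Levels are given as counts in each 1000000 UMIs of the class (CPM). The 15 chaperones and folding enzymes together stood at 10506 CPM in secretory and 7239 CPM in other epithelial-like cells of Ptger4-OFF, a ratio of 1.45. In Ptger4-ON they stood at 8959.8 CPM in secretory and 6247 CPM in other epithelial-like cells, a ratio of 1.43. Counted per gene, 9 of 15 were at least 1.5-fold higher in secretory cells of Ptger4-OFF and 10 of 15 in Ptger4-ON, against 13.7% and 8.72% of all genes with at least 20 UMIs in the comparison. None of the 15 was 1.5-fold lower, which held for 19.4% and 20.2% of all genes. The median log2 ratio of the 15 was 0.66 and 0.71, against -0.05 and -0.15 over all genes, with 0.5 added to each count on the log2 scale.

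**Figure D1:**
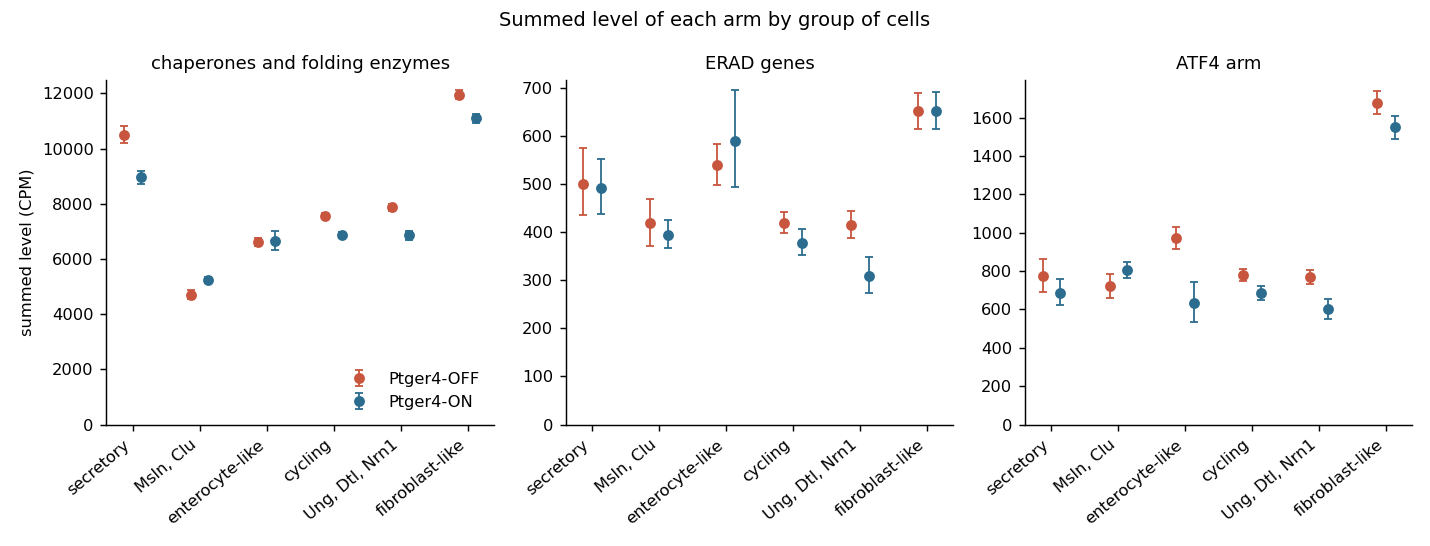
Summed CPM of the chaperones and folding enzymes, the ERAD genes and the ATF4 arm (y axes, starting at 0) in each group of cells (x axis), with Ptger4-OFF left of Ptger4-ON and exact Poisson 95% intervals. The chaperone sum is highest in fibroblast-like and secretory cells and lowest in the cluster led by Msln and Clu (4704 and 5224 CPM), and the ATF4 arm stands apart only in fibroblast-like cells (1678 and 1549 CPM).

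Hspa5, which encodes the ER Hsp70 chaperone BiP, had 1687 CPM in secretory and 1069 CPM in other epithelial-like cells of Ptger4-OFF, and 1412 and 927 CPM in those of Ptger4-ON. The ratios were 1.58 (95% interval 1.46 to 1.71) and 1.52 (1.42 to 1.64). Hsp90b1, the ER Hsp90 chaperone GRP94 and the member with the most UMIs, had 2521 against 1971 CPM and 2033 against 1699 CPM, so that its ratios of 1.28 and 1.197 stayed under 1.5. When secretory cells were taken instead by their Paneth and goblet marker UMIs (114 and 144 cells), the log2 ratio of Hspa5 was 0.51 in Ptger4-OFF and 0.14 in Ptger4-ON, and that of Hsp90b1 was 0.14 and -0.20. The direction of Hsp90b1 in Ptger4-ON thus depended on how secretory cells were chosen.

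Calreticulin and calnexin, the lectin chaperones that bind sugars on newly made glycoproteins, differed from each other. Calr, the soluble one, had 1456 CPM in secretory against 902 CPM in other epithelial-like cells of Ptger4-OFF and 1247 against 756 CPM in Ptger4-ON, ratios of 1.61 (1.48 to 1.76) and 1.65 (1.52 to 1.78). Canx, the membrane-bound one, had 1009 against 859 CPM (1.17, 1.06 to 1.30) and 775 against 835 CPM (0.927, 0.841 to 1.02). Its direction therefore differed between the libraries, and by marker UMIs its Ptger4-OFF log2 ratio turned to -0.0695. Pdia3, the disulfide isomerase that works with both, had 783 against 471 CPM and 709 against 433 CPM, ratios of 1.66 (1.48 to 1.86) and 1.64 (1.47 to 1.82).

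The other disulfide isomerases ranged more widely. Pdia6 had 673 CPM in secretory against 359.6 CPM in other epithelial-like cells of Ptger4-OFF and 535 against 307 CPM in Ptger4-ON, ratios of 1.87 (1.65 to 2.12) and 1.74 (1.54 to 1.96), with log2 ratios of 0.46 and 0.16 by marker UMIs. P4hb, the classical isomerase PDI and also a subunit of collagen prolyl 4-hydroxylase, had 904 against 702 CPM (1.29, 1.16 to 1.43) and 851 against 470.1 CPM (1.81, 1.64 to 1.99). It is the 1 chaperone gene that passed 1.5-fold in Ptger4-ON and not in Ptger4-OFF. Pdia4 had 212 against 173 CPM and 184 against 139.8 CPM, and its ratios of 1.22 (0.971 to 1.52) and 1.32 (1.07 to 1.61) stayed below 1.5.

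The largest ratios among the chaperones belonged to 3 small ER-resident proteins. Sdf2l1, a partner of the BiP co-chaperone Dnajb11, had 129 CPM in secretory against 49.8 CPM in other epithelial-like cells of Ptger4-OFF and 126 against 62.6 CPM in Ptger4-ON, ratios of 2.59 (1.90 to 3.46) and 2.01 (1.54 to 2.58). Manf, an ER protein that is also secreted, had 452 against 223 CPM and 422 against 206 CPM, ratios of 2.02 (1.73 to 2.36) and 2.05 (1.78 to 2.36). Creld2, an ER-resident protein induced when unfolded chains build up, had 122 against 59.2 CPM and 129 against 62.6 CPM, ratios of 2.05 (1.499 to 2.76) and 2.06 (1.59 to 2.64). By marker UMIs the log2 ratios were smaller, at 0.73 and 0.35 for Sdf2l1, 0.68 and 0.34 for Manf and 0.69 and 0.48 for Creld2, and stayed above 0.

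With secretory cells taken as the cluster, the BiP co-chaperones did not share 1 pattern. Dnajc3, which also inhibits PERK, had 299 against 199.8 CPM in Ptger4-OFF and 285 against 166 CPM in Ptger4-ON, ratios of 1.497 (1.23 to 1.80) and 1.72 (1.45 to 2.03). Dnajb11, which brings unfolded chains to BiP, had 175 against 135 CPM (1.29, 1.00 to 1.64) and 178 against 126 CPM (1.41, 1.14 to 1.73). Dnajb9, which recruits BiP to IRE1, had 34.04 against 35.2 CPM and 19.6 against 23.8 CPM. Its ratios of 0.968 (0.521 to 1.65) and 0.823 (0.413 to 1.49) rest on 14 and 12 secretory UMIs. The log2 ratios of Dnajb9 were 0.37 and 0.90 by marker UMIs and 0.71 and 0.55 with equal weight for each cell. Its place apart from the other chaperones thus depended on how cells were chosen and weighted. Hyou1, a nucleotide exchange factor of BiP, had 48.6 against 29.6 CPM (1.64, 0.983 to 2.6) and 53.8 against 34.3 CPM (1.57, 1.04 to 2.29), but its Ptger4-ON log2 ratio was -0.0254 by marker UMIs.

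The 7 chaperones with an ER stress element in their window were at least 1.5-fold higher in secretory cells for 5 of 7 in both libraries, with median log2 ratios of 0.66 in Ptger4-OFF and 0.72 in Ptger4-ON. Of the 6 with a window and no element, 2 passed in Ptger4-OFF (median 0.37) and 3 in Ptger4-ON (median 0.61). Sdf2l1, which has the largest ratio in Ptger4-OFF, is among the 6 without the element, and Canx, with the lowest ratio of the 7 in both libraries, is among those with it. Chaperones with and without the element overlapped in their ratios in both libraries.

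ERAD genes were higher in secretory cells for only some members. Together they stood at 501 CPM in secretory against 439 CPM in other epithelial-like cells of Ptger4-OFF and at 492 against 381 CPM in Ptger4-ON, ratios of 1.14 and 1.29. Of the 6 with enough UMIs, 1 passed 1.5-fold in Ptger4-OFF and 3 in Ptger4-ON, with median log2 ratios of 0.08 and 0.52. Over all genes 13.7% and 8.72% did, so the Ptger4-OFF count is near the general share. Edem1, which trims mannose from misfolded glycoproteins and is the one that passed in both, had 65.6 against 41.0 CPM (1.6, 1.04 to 2.38) and 84.8 against 40.04 CPM (2.12, 1.53 to 2.89). Herpud1, a membrane protein that assembles the ERAD complex, had 221 against 176 CPM (1.26, 1.01 to 1.56) and 183 against 121 CPM (1.51, 1.22 to 1.84). It carries both the amino acid element and the second ER stress element shown above.

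Syvn1 encodes Hrd1, the ubiquitin ligase of ERAD, and Sel1l its adaptor. Syvn1 had 9.73 against 16.0 CPM in Ptger4-OFF, a ratio of 0.608 (0.163 to 1.6) on 4 secretory UMIs, and 29.3 against 15.2 CPM in Ptger4-ON, a ratio of 1.93 (1.08 to 3.25). Sel1l had 55.9 against 49.2 CPM (1.14, 0.711 to 1.73) and 62.0 against 45.7 CPM (1.36, 0.935 to 1.92). The derlins, membrane proteins through which chains leave the ER, were not 1.5-fold different. Derl1 had 87.5 against 91.5 CPM and 68.5 against 89.4 CPM, with ratios of 0.957 and 0.766, and Derl2 had 60.8 against 65.3 CPM and 65.2 against 69.3 CPM, with ratios of 0.930 and 0.941. Derl3 had 1 UMI in the Ptger4-OFF and 2 in the Ptger4-ON epithelial-like cells and none in the secretory cells, so its level was not measurable at this depth, although its window holds the element.

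The ATF4 arm did not share the secretory pattern of the chaperones. Its 7 genes summed to 776 CPM in secretory and 801 CPM in other epithelial-like cells of Ptger4-OFF and to 688 and 711 CPM in those of Ptger4-ON, a ratio of 0.968 in both. No member was 1.5-fold higher in secretory cells, 1 of 7 was lower in Ptger4-OFF and 2 of 7 in Ptger4-ON, against 19.4% and 20.2% of all genes lower. Their median log2 ratios were -0.13 and 0.00. Atf4 itself, the transcription factor, had 425 against 398 CPM (1.07, 0.914 to 1.247) and 370.1 against 370.5 CPM (0.999, 0.866 to 1.15). Asns, the asparagine synthetase that ATF4 induces, had 250.4 against 243 CPM and 218 against 214 CPM, ratios of 1.03 (0.837 to 1.26) and 1.02 (0.847 to 1.22).

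The remaining genes of this arm had few UMIs in secretory cells. Ppp1r15a (GADD34, which reverses the translation block set by PERK) had 12.2 against 55.3 CPM in Ptger4-OFF and 35.9 against 49.99 CPM in Ptger4-ON. Its ratios were 0.220 (0.0709 to 0.517) on 5 secretory UMIs and 0.718 (0.442 to 1.11) on 22. Ddit3 (CHOP, a transcription factor linked to cell death) had 36.5 against 42.3 CPM (0.863, 0.477 to 1.45) and 27.7 against 27.0 CPM (1.03, 0.580 to 1.705). Trib3, a pseudokinase induced by CHOP, had 21.9 against 29.8 CPM (0.735, 0.332 to 1.42) and 9.78 against 16.9 CPM (0.580, 0.207 to 1.32). Chac1, which breaks down glutathione, had 14.6 against 17.2 CPM (0.846, 0.305 to 1.89) and 21.2 against 17.5 CPM (1.21, 0.621 to 2.18). Sesn2, a stress-induced regulator of the growth kinase mTORC1, had 14.6 against 16.4 CPM (0.889, 0.320 to 1.99) and 4.89 against 15.04 CPM (0.325, 0.0656 to 0.988, on 3 secretory UMIs). The interval lay below 1 for Ppp1r15a in Ptger4-OFF and for Sesn2 in Ptger4-ON, and for neither gene in both libraries. By marker UMIs these log2 ratios were -0.64 for Ppp1r15a in Ptger4-OFF and 0.16 for Sesn2 in Ptger4-ON.

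Among the sensors, Ern2 differed most between secretory and other epithelial-like cells. It had 41.3 CPM (17 UMIs) in secretory and 0.973 CPM (7 UMIs) in other epithelial-like cells of Ptger4-OFF, and 55.4 CPM (34 UMIs) and 2.03 CPM (10 UMIs) in those of Ptger4-ON. The ratios were 42.5 (16.7 to 121) and 27.3 (13.2 to 61.9), or 5.35 and 4.72 on the log2 scale. The size depended on how cells were chosen and weighted, with log2 ratios of 8.69 and 5.73 by marker UMIs and 6.96 and 6.48 with equal weight for each cell. Fibroblast-like cells had no UMI of it in either library. The share of cells with an Ern2 UMI shows the same. After each cell was thinned to 1000 UMIs, it was 6.35% of secretory cells (4 of 63, exact interval 1.76 to 15.5) and 0.0917% of other epithelial-like cells in Ptger4-OFF. In Ptger4-ON it was 10.6% of secretory cells (7 of 66, 4.37 to 20.6) and 0 of 464 other epithelial-like cells, whose interval reaches 0.792%. In fibroblast-like cells it was 0 in both libraries, with upper limits of 1.07% and 1.5005%. Without thinning the shares were 21.5% and 34.3% of secretory cells and 0.441% and 1.54% of other epithelial-like cells. Before thinning, the median secretory cell had 3914 and 4197 UMIs, the median other epithelial-like cell 4172 and 4652, and the median fibroblast-like cell 4586 and 5100.5.

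Xbp1, the transcription factor activated by IRE1, had 229 against 166 CPM in Ptger4-OFF and 243 against 134 CPM in Ptger4-ON, ratios of 1.38 (1.11 to 1.704) and 1.81 (1.504 to 2.16). These counts hold spliced and unspliced forms together. Atf6 had 38.9 against 37.3 CPM (1.04, 0.588 to 1.73) and 50.5 against 42.9 CPM (1.18, 0.781 to 1.72). Eif2ak3, which encodes PERK, had 14.6 against 7.51 CPM (1.94, 0.683 to 4.51) and 17.9 against 17.1 CPM (1.05, 0.505 to 1.98). Ern1, the widely expressed IRE1α, had 2.43 against 5.56 CPM on 1 secretory UMI (0.437, 0.0108 to 2.58) and 8.15 against 4.27 CPM on 5 (1.91, 0.563 to 5.21). Beside the clear difference of Ern2, the depth could not show a difference for Ern1, Atf6 or Eif2ak3 in either library.

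Over all 33 members with enough UMIs, 12 were higher and 2 lower in secretory cells of Ptger4-OFF, and 16 higher and 2 lower in Ptger4-ON. Among all genes, 13.7% and 8.72% were higher and 19.4% and 20.2% lower. With secretory cells taken by marker UMIs, 6 and 5 members were higher, 2 and 0 lower, and the chaperone median was 0.39 and 0.26. Without the barcodes over 50000 UMIs, 13 and 17 members were higher and 1 and 1 lower. The shares over all genes are those of the main choice of cells, and none is given for these alternatives. The secretory cells had marker levels of fibroblasts of 97.2 and 75.004 CPM.

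The cells within the secretory cluster were not alike. Per cell, the chaperone sum had a median of 12012 CPM with quartiles of 8526 and 16179 in secretory cells of Ptger4-OFF, and a median of 7290.1 CPM with quartiles of 5582 and 9072 in other epithelial-like cells. In Ptger4-ON the secretory median was 10526 CPM with quartiles of 7534 and 14204, and the other epithelial-like median was 6258 CPM with quartiles of 4468 and 8052. The upper quartile of other epithelial-like cells therefore lay close to the lower quartile of secretory cells. Split by whether goblet or Paneth marker UMIs prevailed, the cluster gave 39 and 30 goblet-leading cells and 26 and 37 Paneth-leading cells, and 30 of the 132 cells lay near the cut. This is a range and not a pair of cell types, since Muc2 stood at 238 and 749 CPM in goblet-leading and at 723 and 801 CPM in Paneth-leading cells.

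Within that range, Herpud1 had 249 and 236 CPM in goblet-leading cells of Ptger4-OFF and Ptger4-ON, against 171 and 144 CPM in Paneth-leading cells. Pdia4 had 249 and 243 CPM in goblet-leading against 143 and 141 CPM in Paneth-leading cells, and Hsp90b1 had 2606 and 2526 against 2368 and 1673 CPM. Hspa5 had 1764 and 1634 CPM in goblet-leading against 1549 and 1249.9 CPM in Paneth-leading cells. These 4 genes were higher in goblet-leading cells of both libraries, with intervals that separated for Pdia4, Hsp90b1 and Hspa5 in Ptger4-ON and for none of the 4 in Ptger4-OFF. Dnajc3 changed direction, with 268 and 359 CPM in goblet-leading against 355 and 231 CPM in Paneth-leading cells, and its intervals separated in Ptger4-ON. Atf4 had 509.8 CPM in goblet-leading against 273 CPM in Paneth-leading cells of Ptger4-OFF, where its intervals separated. Ern2 went the other way, with 30.2 and 46.4 CPM in goblet-leading against 61.4 and 62.1 CPM in Paneth-leading cells, and its intervals overlapped. Manf had 453 and 467 CPM in goblet-leading against 450.5 and 389 CPM in Paneth-leading cells, also with overlapping intervals. All these intervals cover counting error only and not the spread between cells. In each library 1 barcode held 12.9% (Ptger4-OFF) or 21.3% (Ptger4-ON) of the secretory UMIs, and no values of this split without it are given here.

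Across epithelial states other than the secretory one, the chaperones were lowest in the cluster led by Msln and Clu, at 4704 CPM in Ptger4-OFF and 5224 CPM in Ptger4-ON. The enterocyte-like cluster stood at 6609.95 and 6658 CPM, the cycling cluster at 7562 and 6863 CPM, and the cluster led by Ung and Dtl at 7864 and 6854 CPM. Of the 15 chaperones, 8 had their highest level in secretory cells in both libraries (Calr, Pdia3, Pdia6, Dnajb11, Sdf2l1, Creld2, Manf and Hyou1) and 5 in fibroblast-like cells (Hspa5, Hsp90b1, Canx, Pdia4 and Dnajc3). Against fibroblast-like cells, intervals left the direction open for Calr, Pdia3 and Dnajb11 in Ptger4-OFF and for Hyou1, Pdia4 and Dnajc3 in both libraries. By marker UMIs, Calr, Pdia3 and Pdia6 fell below fibroblast-like cells in both libraries, and Manf and Hyou1 in Ptger4-ON. No share of all genes with their highest level in these cells is given here, so the counts only describe the members. Dnajb9 stood apart, with 88.4 and 85.4 CPM in enterocyte-like cells against 34.04 and 19.6 CPM in secretory cells and 56.2 and 62.0 CPM in fibroblast-like cells. P4hb was also high in enterocyte-like cells, at 1393 and 1374 CPM, which is close to its level in fibroblast-like cells. Sdf2l1 was low there, at 18.6 and 46.9 CPM.

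**Figure D2:**
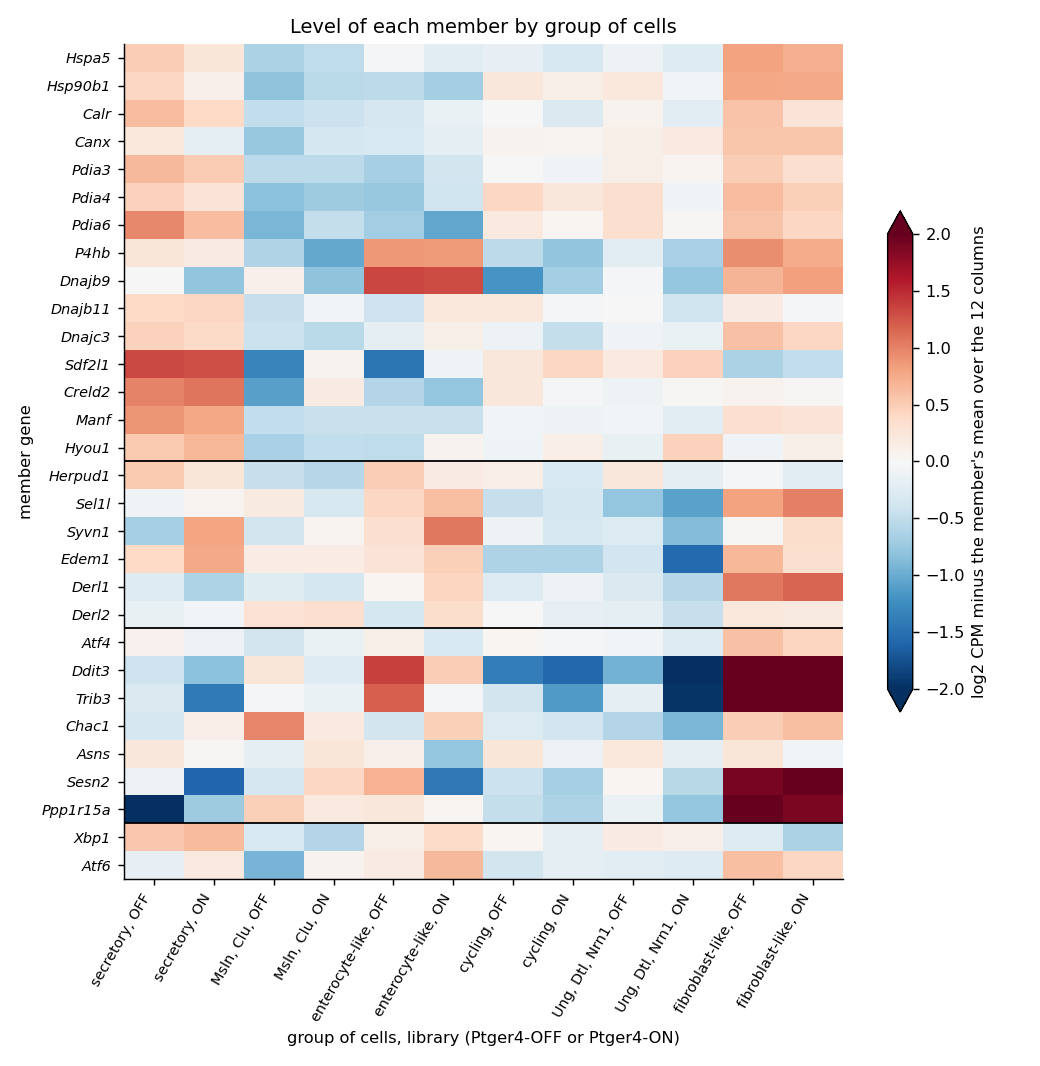
Heat map of log2 CPM of each member minus that member's mean over the 12 columns (colour, capped at 2 in both directions), for 30 members (rows) and 6 groups of cells in Ptger4-OFF and Ptger4-ON (columns). Most chaperone rows are above their mean in the secretory and fibroblast-like columns. Exceptions include Dnajb9 and Canx in the secretory column of Ptger4-ON and Sdf2l1 in both fibroblast-like columns. The rows of Ddit3, Trib3, Sesn2 and Ppp1r15a are above it in the fibroblast-like columns.

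How far the members moved together was described by Spearman's rho of their log2 CPM over 16 groups of cells, which are the clusters with at least 15 cells in a library. They include the 26 Ptger4-ON cells of the unnamed shallow cluster. Members with 0 UMIs there include Herpud1, Edem1, Derl1, Dnajb9 and Sesn2, and Hspa5 had 4. The 17 enteroendocrine-like cells of Ptger4-OFF are also among the 16 groups. These groups share 2 libraries and differ in depth, so the values are descriptions. Among the chaperones the median rho with the others of their list was highest for Manf (0.79), Dnajc3 (0.76), Hspa5 (0.76) and Pdia3 (0.75) and lowest for Dnajb9 (0.21) and Sdf2l1 (0.14). With Hspa5, the highest rho belonged to Hsp90b1 (0.88), Dnajc3 (0.88) and Pdia4 (0.86). In the ATF4 arm Trib3 (0.72), Ddit3 (0.70) and Sesn2 (0.68) had the highest median rho with the rest of their arm and Asns the lowest (0.03). Sdf2l1 had a median rho of -0.52 with the ATF4 arm.

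Set against fibroblast-like cells, epithelial-like cells had less of most chaperones and far less of the stress-induced part of the ATF4 arm. Of the 33 members, 2 were at least 1.5-fold higher and 17 lower in epithelial-like cells of Ptger4-OFF, and 2 higher and 14 lower in Ptger4-ON. Over all genes, 37.2% and 37.5% were higher and 25.2% and 24.2% lower. The Ptger4-ON count of lower members became 22 when the libraries were scaled by TMM or by median-of-ratios factors, which shifted this comparison by -0.21 on the log2 scale. The chaperone median was -0.53 in Ptger4-OFF and -0.48 in Ptger4-ON (1 higher and 6 lower of 15 in each), the ERAD median -0.60 and -0.45, and the ATF4 arm median -1.97 and -2.20 with 6 and 5 of 7 lower. The median of all genes was 0.21 and 0.23.

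Ddit3 showed the largest difference of the ATF4 arm. It had 42.0 CPM in epithelial-like and 332 CPM in fibroblast-like cells of Ptger4-OFF, and 27.1 and 359 CPM in those of Ptger4-ON. It was 7.91-fold (6.90 to 9.09) and 13.2-fold (11.1 to 15.9) lower in epithelial-like cells. Trib3 had 29.3 CPM in epithelial-like against 139 CPM in fibroblast-like cells of Ptger4-OFF and 16.1 against 115 CPM in Ptger4-ON, 4.75-fold and 7.14-fold lower. Sesn2 had 16.3 against 63.9 CPM and 13.9 against 71.9 CPM, 3.92-fold and 5.17-fold lower, and Ppp1r15a had 53.0 against 257 CPM and 48.4 against 222 CPM, 4.85-fold and 4.58-fold lower. For these 4 genes each of the 5 epithelial groups drawn in the heat map lay below the fibroblast-like level of its library.

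The rest of the arm differed less. Atf4 had 399 against 605 CPM and 370.4 against 545 CPM, 1.52-fold and 1.47-fold lower, and Chac1 had 17.1 against 27.8 CPM and 17.9 against 30.1 CPM, 1.63-fold and 1.68-fold lower. Asns had 243 against 253 CPM and 214 against 207 CPM, with ratios of 0.960 (0.867 to 1.06) and 1.04 (0.919 to 1.17). The arm thus held genes with a large difference and 1, Asns, whose interval included 1 in both libraries. The summed level of 15 immediate-early genes, which respond to the handling of cells, was 3579 and 3682 CPM in secretory, 4270.3 and 3864 CPM in other epithelial-like, and 3744 and 3927 CPM in fibroblast-like cells, and its part in the ATF4 arm values was not tested.

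The shares of cells showed the same order at equal depth. After thinning to 1000 UMIs, a Ddit3 UMI was found in 0 of 63 secretory cells of Ptger4-OFF (upper limit 5.69%) and 1.52% of those of Ptger4-ON, in 3.85% and 2.80% of other epithelial-like cells, and in 26.7% and 32.8% of fibroblast-like cells. Without thinning the shares were 20% and 14.9%, 15.2% and 13.8%, and 67.9% and 68.7%. Ppp1r15a was found in 1.59% and 4.55% of thinned secretory cells, 6.06% and 6.03% of other epithelial-like cells and 20.9% and 20.1% of fibroblast-like cells. Hspa5 gave another order, with 87.3% and 83.3% of secretory, 63.0% and 60.6% of other epithelial-like and 84.6% and 83.2% of fibroblast-like cells.

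Among the chaperones, Hspa5 had 1102 CPM in epithelial-like against 2097 CPM in fibroblast-like cells of Ptger4-OFF and 981 against 1954 CPM in Ptger4-ON, and was 1.90-fold (1.83 to 1.98) and 1.99-fold (1.91 to 2.08) lower. P4hb had 713 against 1454 CPM and 512 against 1272 CPM, 2.04-fold and 2.48-fold lower. Hsp90b1 had 2000.5 against 3267 CPM and 1736 against 3223 CPM, 1.63-fold and 1.86-fold lower. All 3 were lower in epithelial-like cells of both libraries. Dnajb9 (1.601-fold and 2.66-fold lower) and Dnajc3 (1.604-fold and 1.63-fold lower) passed 1.5-fold in both libraries, and Calr only in Ptger4-OFF (1.51-fold and 1.40-fold). Canx stood at 1.49-fold and 1.56-fold lower.

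Sdf2l1 was the 1 chaperone higher in epithelial-like cells, with 54.1 against 33.3 CPM in Ptger4-OFF and 69.6 against 36.5 CPM in Ptger4-ON, ratios of 1.62 (1.24 to 2.16) and 1.91 (1.46 to 2.53). Creld2, Hyou1 and Dnajb11 had ratios between 0.917 and 1.12, with intervals that included 1. In ERAD, Derl1 had 91.3 against 219 CPM and 87.1 against 236 CPM, 2.40-fold and 2.71-fold lower, and Sel1l had 49.6 against 105 CPM and 47.5 against 121 CPM, 2.11-fold and 2.54-fold lower. Edem1 was 1.88-fold and 1.40-fold lower, and Herpud1 was not, with 178 against 151 CPM and 128 against 133 CPM. Of the sensors, Xbp1 had 169 against 132 CPM (1.28, 1.11 to 1.47) and 146 against 101 CPM (1.45, 1.23 to 1.72), while Atf6 was 1.81-fold and 1.35-fold lower. Ern2 had 24 and 44 UMIs in epithelial-like cells and none in fibroblast-like cells, which makes it at least 1.93-fold and 4.57-fold higher against a floor of 3 counts over the class. With the counting error of both classes the lower limits were 1.45 and 3.56.

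Secretory cells alone came close to fibroblast-like cells in the chaperones and stayed far below them in the ATF4 arm. The chaperone sum was 10506 CPM in secretory against 11954 CPM in fibroblast-like cells of Ptger4-OFF and 8959.8 against 11090.3 CPM in Ptger4-ON. Per gene, 3 of 15 chaperones were higher and 2 lower by 1.5-fold in Ptger4-OFF, and 2 higher and 3 lower in Ptger4-ON, with medians of 0.05 and 0.14. With secretory cells taken by marker UMIs the Ptger4-ON median was -0.33. Over all members 5 of 31 were higher and 11 lower in Ptger4-OFF, and 5 of 33 higher and 9 lower in Ptger4-ON, against 30.9% and 29% of all genes higher and 31.4% and 30.3% lower. Without the barcodes over 50000 UMIs, 8 were higher in Ptger4-ON.

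The mix of chaperones differed between these cells. Sdf2l1 was 3.87-fold (2.63 to 5.69) and 3.44-fold (2.43 to 4.88) higher in secretory than in fibroblast-like cells, Creld2 1.89-fold and 2.06-fold, and Manf 1.45-fold and 1.43-fold. By marker UMIs the log2 ratio of Manf was 0.19 in Ptger4-OFF and turned to -0.11 in Ptger4-ON. P4hb, Hsp90b1, Canx and Hspa5 were lower in secretory cells, with ratios of 0.622 and 0.669, 0.772 and 0.631, 0.782 and 0.6002, and 0.805 and 0.723. With equal weight for each cell the log2 ratio of Hspa5 in Ptger4-OFF turned to 0.0131. Xbp1 was higher, with ratios of 1.73 (1.35 to 2.205) and 2.41 (1.92 to 3.02), and Ern2 was at least 25.2-fold and 31.9-fold higher against the floor, which leaves out the counting error of its 17 and 34 UMIs. With that error the lower limits of the ratio were 18.4 and 24.5. The ATF4 arm had a median log2 ratio of -2.02 and -2.60. Ddit3 had ratios of 0.110 and 0.0773 and Ppp1r15a of 0.0473 and 0.162.

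Between the conditions, the chaperones in epithelial-like cells differed little, and the members past 1.5-fold were few. In Ptger4-OFF relative to Ptger4-ON epithelial-like cells, 3 of 33 members were higher and 2 lower, against 7.11% and 10.6% of all genes. The median log2 ratio was 0.17 for the chaperones, with 12 of 15 above 0, -0.01 for ERAD, 0.18 for the ATF4 arm and -0.23 for the sensors, against -0.04 over all genes. No share of all genes above 0 is given here, so the 12 of 15 only describe the chaperones. These ratios over the whole class include the different shares of states, and fewer cells of a type and less RNA per cell cannot be told apart in them.

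Trib3 was higher, with 29.3 CPM in Ptger4-OFF and 16.1 CPM in Ptger4-ON epithelial-like cells, a ratio of 1.82 (1.42 to 2.36). Ddit3 had 42.0 CPM in Ptger4-OFF and 27.1 CPM in Ptger4-ON (1.55, 1.27 to 1.89), and Dnajb9 had 35.1 and 23.3 CPM (1.51, 1.22 to 1.87). The barcodes over 50000 UMIs held 4.97% of the Ptger4-OFF and 22.9% of the Ptger4-ON epithelial-like UMIs. Without them the log2 ratio of Ddit3 was 0.47 and that of Dnajb9 0.64. With equal weight for each cell they were 0.79 and 0.41, so neither gene stayed past 1.5-fold in every alternative. Trib3 (64.5 and 25.6 CPM), Ddit3 (129 and 68.3 CPM) and Dnajb9 (88.4 and 85.4 CPM) each stood above their class level in enterocyte-like cells of Ptger4-OFF and Ptger4-ON. These cells are 12.1% of the Ptger4-OFF and 3.91% of the Ptger4-ON epithelial-like cells, and the part of that share in these ratios was not tested. Eif2ak3 was lower, with 7.89 CPM in Ptger4-OFF and 17.2 CPM in Ptger4-ON (0.460, 0.327 to 0.642). By state its ratio was 0.301 (0.142 to 0.603) in cycling cells, on 13 and 27 UMIs. It was 0.479 (0.194 to 1.03) in the cluster led by Msln and Clu and 0.650 (0.287 to 1.54) in that led by Ung and Dtl. In enterocyte-like cells it was 1.10 (0.316 to 5.92), on 16 and 3 UMIs. Ern2 was lower too, with 3.16 and 7.95 CPM in the class (0.397, 0.231 to 0.667). Secretory cells, which hold most of the Ern2 UMIs, make up a smaller share of the Ptger4-OFF epithelial-like cells. Within secretory cells Ern2 had 41.3 CPM in Ptger4-OFF and 55.4 CPM in Ptger4-ON (0.746, 0.391 to 1.37), an interval that includes 1.

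Other members had ratios nearer 1 with narrow intervals. P4hb had 713 CPM in Ptger4-OFF and 512 CPM in Ptger4-ON (1.39, 1.33 to 1.46), and Herpud1 had 178 and 128 CPM (1.39, 1.27 to 1.53). Hspa5 had 1102 and 981 CPM (1.12, 1.09 to 1.16), Hsp90b1 2000.5 and 1736 CPM (1.15, 1.12 to 1.18), and Xbp1 169 and 146 CPM (1.15, 1.06 to 1.26). Sdf2l1 went the other way, with 54.1 CPM in Ptger4-OFF and 69.6 CPM in Ptger4-ON (0.777, 0.674 to 0.895). These intervals do not hold the spread between cultures, which 1 library per condition cannot give.

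Taken state by state, the ATF4 arm was higher in Ptger4-OFF in some epithelial states. In the cluster led by Ung and Dtl its median log2 ratio was 0.59, with 4 of 7 members at least 1.5-fold higher and none lower, against 8.27% of all genes higher and 8.98% lower in the same state. There Ddit3 had 25.9 CPM in Ptger4-OFF and 10.1 CPM in Ptger4-ON (2.57, 1.26 to 5.92), and Trib3 had 24.5 and 6.71 CPM (3.65, 1.57 to 10.4), on 9 and 6 Ptger4-ON UMIs. In enterocyte-like cells the median was 0.88, with 4 of 7 higher and 1 of 7, Chac1, lower (0.587, 0.221 to 1.82), against 22.1% of all genes higher and 16.8% lower. These values rest on 23 Ptger4-ON cells, and that of Sesn2, 1 of the 4, on 1 Ptger4-ON UMI. In cycling cells the median was 0.20 with 1 of 7 higher and none lower (5.42% and 7.87% of all genes). In the cluster led by Msln and Clu it was 0.11 with 1 of 7 higher and 1 of 7 lower (9.61% and 16.5% of all genes). The chaperone medians by state were 0.17, -0.13, 0.14 and -0.13 in the same order of states.

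In fibroblast-like cells no member of the 32 measured passed 1.5-fold in either direction, where 6.22% of all genes were higher and 7.63% lower. The largest difference was that of Ern1, with 9.28 CPM in Ptger4-OFF and 12.8 CPM in Ptger4-ON on 17 and 22 UMIs (0.728, 0.363 to 1.43). The largest ratios above 1 were those of Xbp1, with 132 CPM in Ptger4-OFF and 101 CPM in Ptger4-ON (1.31, 1.07 to 1.6), and, among the chaperones, Calr, with 1409 and 1133 CPM (1.24, 1.17 to 1.32). The chaperone median was 0.10 and that of the ATF4 arm 0.15. Ddit3 had 332 CPM in Ptger4-OFF and 359 CPM in Ptger4-ON (0.925, 0.826 to 1.04), so its high level in fibroblast-like cells was present in both conditions.

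In secretory cells 28 members had enough UMIs, of which 1 was higher and 2 lower in Ptger4-OFF, against 10.7% and 10.6% of all genes. Dnajb9 had 34.04 CPM in Ptger4-OFF and 19.6 CPM in Ptger4-ON (1.74, 0.747 to 4.12). Syvn1 had 9.73 and 29.3 CPM (0.331, 0.0816 to 1.01) and Ppp1r15a 12.2 and 35.9 CPM (0.339, 0.100 to 0.917). Each rests on few UMIs (14 and 12 for Dnajb9, 4 and 18 for Syvn1, 5 and 22 for Ppp1r15a), and the interval of Ppp1r15a alone excluded 1. With equal weight for each cell its log2 ratio turned to 0.0215, and by marker UMIs it was -0.28. The chaperone median was 0.14. Hspa5 had 1687 CPM in Ptger4-OFF and 1412 CPM in Ptger4-ON (1.19, 1.08 to 1.32), Hsp90b1 2521 and 2033 CPM (1.24, 1.14 to 1.35), and Canx 1009 and 775 CPM (1.30, 1.14 to 1.49).

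**Figure D3:**
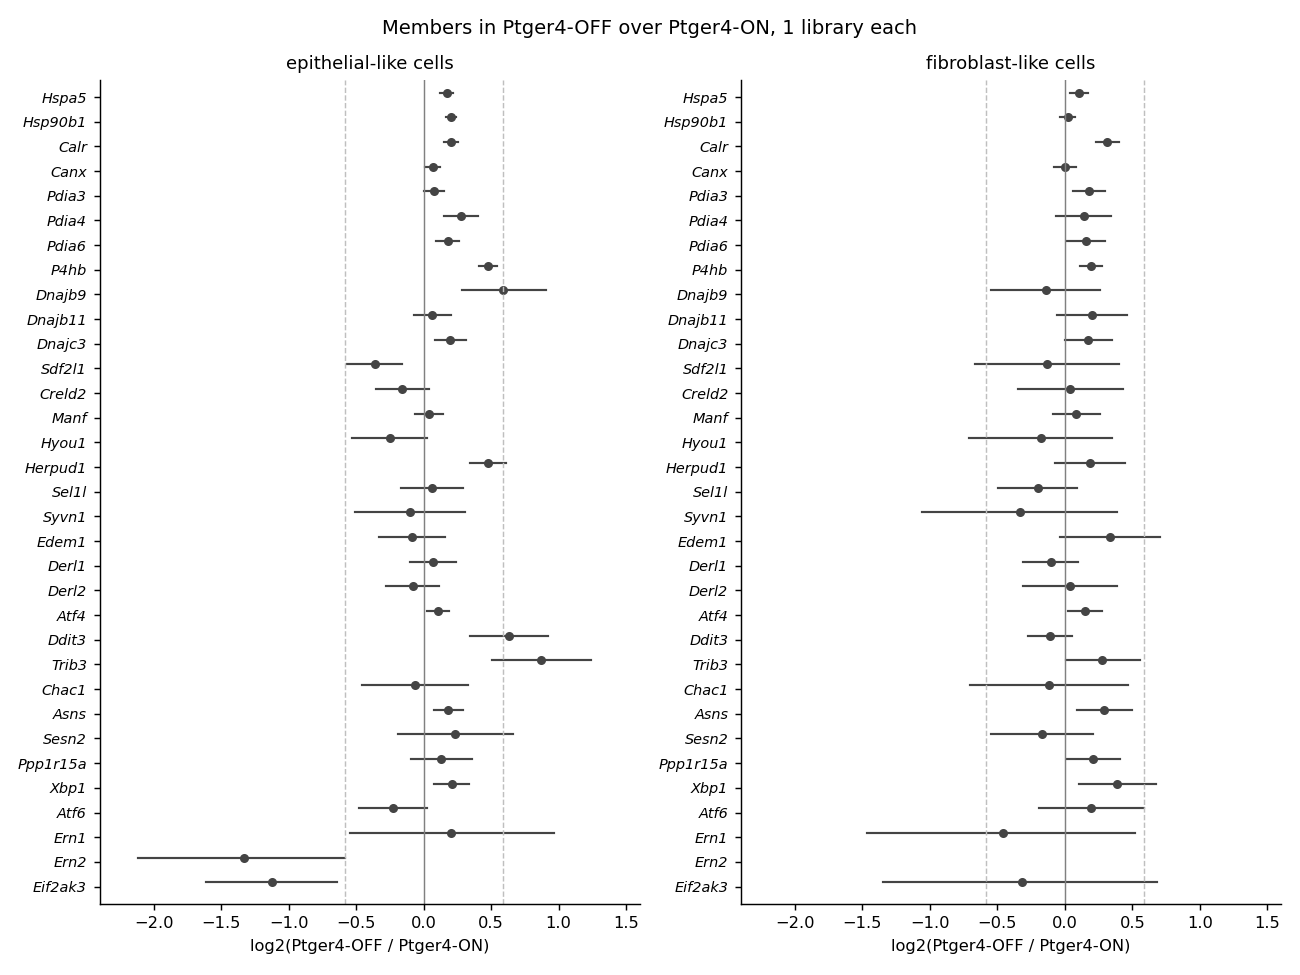
Log2 ratio of CPM (x axis) in Ptger4-OFF over Ptger4-ON for each member (y axis), in epithelial-like and fibroblast-like panels, with exact 95% intervals that cover counting error only and dashed lines at 1.5-fold. In epithelial-like cells Trib3, Ddit3 and Dnajb9 lie past the right line and Ern2 and Eif2ak3 past the left one, and in fibroblast-like cells every drawn member lies between the lines.

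Related gene lists that are not members were read in the same way. Translocation genes, which bring new proteins into the ER, had median log2 ratios of secretory to other epithelial-like cells of 0.35 in Ptger4-OFF and 0.52 in Ptger4-ON, with 28 of 29 above 0 in both libraries. The share of all genes above 0 is not given here. The leading genes of the translocation list were Sec11c, a signal peptidase subunit (542 against 223 CPM and 499 against 239 CPM), Sec61b (717 against 374 CPM and 714 against 408 CPM) and Sec61a1 (277 against 139.7 CPM and 236 against 144 CPM), the last of which forms the translocation channel. Vesicle transport genes had medians of 0.40 and 0.44, and further folding enzymes 0.47 and 0.36. Cytosolic heat shock genes, the chaperones of another compartment, had medians of -0.03 and -0.34. Among them Dnaja1 stood at 102 against 152 CPM and 127 against 189 CPM, Hspd1, the mitochondrial member of this list, at 793 against 1063 CPM and 766 against 1072 CPM, and Chordc1 at 68.1 against 106 CPM and 97.8 against 119.7 CPM.

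Some genes outside the members differed more than any member but Ern2. Agr2, a disulfide isomerase needed for mucin production and one of the genes that lead the secretory cluster, had 4371 CPM in secretory against 67.2 CPM in other epithelial-like cells of Ptger4-OFF and 6101 against 102 CPM in Ptger4-ON. As a leading gene of that cluster it is given for its level only. Pdia5 had 122 against 21.7 CPM and 108 against 18.5 CPM, 5.60-fold and 5.82-fold, and Txndc5 250.4 against 79.1 CPM and 318 against 84.1 CPM, 3.17-fold and 3.78-fold. Creb3l4, a membrane-bound transcription factor, had 51.1 against 0.834 CPM and 37.5 against 1.63 CPM, 61.2-fold (23.9 to 185) and 23.1-fold (9.96 to 59.7). Creb3l1, of the same family, had 87.5 against 8.203 CPM and 63.6 against 7.52 CPM, and Kdelr3, a receptor that returns ER proteins from the Golgi, 14.6 against 2.09 CPM and 29.3 against 5.69 CPM. Creb3l1 and Kdelr3 were also high in fibroblast-like cells (109 and 82.3 CPM, 135 and 123 CPM).

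The other ERAD and ATF4 lists had medians near 0, at -0.03 in Ptger4-OFF and 0.05 in Ptger4-ON for ERAD and -0.02 and -0.20 for ATF4. Their leading genes in secretory cells were Edem2 (1.82-fold and 2.51-fold), Svip (1.67-fold and 1.63-fold) and Vimp (1.69-fold and 1.48-fold) in ERAD, and Wars, the tryptophanyl-tRNA synthetase, in the ATF4 list (202 against 68.4 CPM and 241 against 120.1 CPM). Nupr1 was 1.40-fold and 1.38-fold higher, and Slc7a3 stood at 2.43 against 5.14 CPM and 3.26 against 6.30 CPM. The secretory values of Slc7a3 lie under the floor of 3 counts in both libraries, so its direction is not established. Between the conditions in epithelial-like cells, Cth, an enzyme of cysteine synthesis, had 147 CPM in Ptger4-OFF and 55.3 CPM in Ptger4-ON (2.66, 2.34 to 3.03), and Nupr1 had 208 and 459.7 CPM (0.452). Ero1l, which reoxidises PDI, had 728 CPM in Ptger4-OFF and 398.5 CPM in Ptger4-ON (1.83, 1.74 to 1.92), while Agr2 had 299.99 and 767 CPM (0.391). The list of ATF4 genes outside the members had a median of 0.14, with 2 of 34 higher and 3 lower by 1.5-fold, and the other 5 lists had medians between -0.13 and 0.05.

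The remaining genes with the largest difference between conditions in each list were lower in Ptger4-OFF epithelial-like cells. In ERAD these were Edem3 (14.5 CPM in Ptger4-OFF and 19.9 CPM in Ptger4-ON, 0.728) and Ube2j1 (39.1 and 51.0 CPM, 0.766). In translocation they were Sec61g (26.0 and 37.0 CPM, 0.703) and Spcs3 (75.6 and 104 CPM, 0.729), and in vesicle transport Kdelr3 (2.76 and 8.31 CPM, 0.332) and Creb3l4 (3.55 and 5.60 CPM, 0.634). The heat shock genes Hspb1 (1.05 and 5.96 CPM, 0.176) and Hspa1b (3.81 and 11.2 CPM, 0.340) were low in both conditions. Several of these, such as Kdelr3, Creb3l4 and Agr2, had their highest epithelial level in secretory cells, whose share differed between the libraries, and its part in these ratios was not tested.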

How the data were processed

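The authors deposited raw whole-number counts of each gene in each barcode, 1 table per library. That these counts are UMIs follows from the Drop-seq protocol in the labels. The submitters' processing notes name STAR 2.6 and mm10; the counting tool, annotation and choice of barcodes were not given in the sources used here. The members and gene lists were chosen with earlier results of these data known.

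Barcodes needed 300 genes and no more than 20% mitochondrial UMIs (1564 passed in Ptger4-OFF, 882 in Ptger4-ON), and Scrublet's doublets (4 and 6) were removed. 1 barcode occurred in both libraries. Cells set to 10000 UMIs were clustered (Leiden, resolution 0.5, 2000 variable genes without the members and other ER lists, 30 components, 15 neighbours; scanpy 1.11.5, igraph 0.11.9, Python 3.11.15) and named from marker lists. UMIs were summed per class (secretory 411309 and 613298, epithelial-like 7603583 and 5533875, fibroblast-like 1832309 and 1725105) and given as CPM with exact Poisson intervals, ratios with exact conditional binomial 95% intervals, and shares with Clopper-Pearson intervals. Counts past 1.5-fold use log2 with 0.5 added to each count and at least 20 UMIs per gene. No p-values were made. TMM and median-of-ratios factors came from edgeR 4.0.16 (R 4.3.3). The ratio step was tested on simulated data.

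Named outside the members were, per list, up to 3 genes with the largest secretory ratio in the same direction in both libraries and up to 2 with the largest difference between conditions in epithelial-like cells. Alternatives changed cell filters, classes, scaling, weights, UMI minimum, fold and thinning.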

Additional observations from a re-analysis of the deposited data

How the results depend on the processing

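Ratios are log2. The fold for counts was also set to 2 and to a value below 1.5, called the lower fold. Over all alternatives tried, 527 of the main medians and counts kept their side or stayed within 1.5 times the main count and 61 moved, while of the further medians, counts and shares of cells 361 stayed, 58 moved and 1 turned; the cause was not tested except where the alternative itself changes the fold, the UMI minimum or the scaling. With secretory cells taken by marker UMIs, the chaperone median of secretory over other epithelial-like cells was 0.39 in Ptger4-OFF and 0.26 in Ptger4-ON, and 6 and 5 members were higher and, in Ptger4-ON, 0 lower; the chaperone median of secretory over fibroblast-like cells in Ptger4-ON turned to -0.33. A single ratio is listed as turned where it changed sign and its main interval excluded 0. By marker UMIs these were, over other epithelial-like cells, Canx -0.0695 (Ptger4-OFF), Hsp90b1 -0.20, Hyou1 -0.0254 and Sesn2 0.16 (Ptger4-ON). Over fibroblast-like cells they were Calr -0.23, Manf -0.11, Pdia3 -0.25 and Pdia6 -0.36 (Ptger4-ON) and Pdia6 -0.0507 (Ptger4-OFF). Some ratios whose main interval included 0 changed sign too. Among them were Dnajb9 0.90 (Ptger4-ON) and Pdia4 -0.031 (Ptger4-OFF) over other epithelial-like cells. Over fibroblast-like cells they included Calr -0.22 and Pdia3 -0.28 (Ptger4-OFF). Equal weight for each cell turned Dnajc3 to -0.0216 and Ppp1r15a to 0.0215 between the conditions (epithelial-like and secretory cells), and Hspa5 to 0.0131 in secretory over fibroblast-like cells of Ptger4-OFF. It moved chaperone medians to 0.78 and 0.95 (secretory over other, Ptger4-OFF and Ptger4-ON) and 0.12 (between conditions, epithelial-like), and ATF4 arm medians to 0.41 (the same) and -1.54 (epithelial-like over fibroblast-like, Ptger4-OFF).

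TMM and median-of-ratios factors gave chaperone medians of -0.70 and -0.72 (Ptger4-OFF) and -0.69 and -0.69 (Ptger4-ON) for epithelial-like over fibroblast-like cells, and 0.90 and 0.89 for secretory over other cells of Ptger4-ON. Lower members of secretory over other cells numbered 1 in both libraries under both factors, a total without Paneth and goblet genes, without deep barcodes and at 2-fold, 1 in Ptger4-OFF with doublets kept and at 50 UMIs, and 4 in both at the lower fold; higher ones at 2-fold numbered 5 and 6. For epithelial-like over fibroblast-like cells, 1 member was higher in Ptger4-OFF under both factors, equal weight, 50 UMIs and 2-fold, and in Ptger4-ON 1 at 50 UMIs and 2-fold and 4 at the lower fold. Lower ones numbered 7 in Ptger4-OFF at 2-fold, and in Ptger4-ON 22 under both factors, 23 at the lower fold and 9 at 2-fold. Between the conditions, higher members in epithelial-like cells numbered 5 at the lower fold and 0 at 2-fold; in fibroblast-like cells 1 were higher by equal weight and 2 higher and 2 lower at the lower fold. In secretory cells higher ones numbered 0 by marker UMIs, at 50 UMIs and at 2-fold, 4 by equal weight, 2 at 10 UMIs and 5 at the lower fold, and lower ones 1 by marker UMIs and without deep barcodes, 4 by equal weight, 0 at 50 UMIs and 5 at the lower fold.

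Keeping the shallow cluster among fibroblast-like cells, an alternative chosen after seeing the data, moved none of these medians and counts. Thinned to 500 UMIs, 1.54% of Ptger4-OFF and 8.96% of Ptger4-ON secretory cells had an Ern2 UMI. Depth limits the secretory values of genes under 20 UMIs. No paired analysis was possible because each condition has 1 library.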
